A study of Mus musculus with 16 samples.

Results

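Whether the effect of a plant extract on gene expression differed between a subcutaneous and a visceral fat depot was measured as a difference of differences. For each of 8 mice, the log2 expression value in epididymal white adipose tissue (eWAT) was subtracted from that in inguinal white adipose tissue (iWAT), which gave 1 depot gap per animal and gene. The gaps of 4 scoparia animals (numbers 16, 17, 18 and 20) were then set against those of 4 control animals (numbers 1 to 4), for all 11050 genes that were detected on enough arrays. All 16 arrays of the series entered this comparison. A positive difference means that the gene stood higher in iWAT relative to eWAT in scoparia animals than in control animals, and a negative one the opposite. The mice were male C57BL/6J, made obese on a high-fat diet with 60% of its energy from fat, and housed alone. From 17 to 21 weeks of age, for 4 weeks, the scoparia animals ate this diet with 1% by weight of an extract of Artemisia scoparia, a wormwood, and the control animals ate the high-fat diet with no extract. The 4 groups were therefore iWAT scoparia, iWAT control, eWAT scoparia and eWAT control, each with 4 arrays. No lean group was part of the comparison, only males were studied, and both arms carry the obesogenic diet. The labels give animal numbers that are alike in both depots, and these were taken to mark the same mouse; they hold no statement that the samples were paired. How the RNA samples relate to pieces of tissue is likewise unstated, and every p below reflects only the spread among the samples at hand.

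White fat stores triglyceride and releases fatty acids under the control of insulin and catecholamines, and its depots keep distinct identities that developmental transcription factors set early. Inguinal fat lies under the skin, wraps a lymph node and can take on heat-producing beige adipocytes. Epididymal fat lies in the abdomen under a mesothelial covering and, in obese male mice, gathers lipid-laden macrophages. Expression was read from whole tissue, in which fewer cells of a type and less RNA per cell cannot be told apart.

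On each array, between 50.5% and 56.2% of the 25697 probes were detected. The depot labels held in every animal: the mean gap over 10 measured subcutaneous patterning genes lay between 0.57 and 1.40 log2 units in scoparia animals and between 1.23 and 1.64 in control animals. The mean gap over 13 mesothelial genes lay between -3.02 and -1.97 in scoparia animals and between -2.29 and -1.90 in control animals. Some arrays stood apart from their groups. On the second principal component iWAT control arrays 1 and 4 lay at 48.7 and 34.2 against -59.9 to -13.8 for the other iWAT arrays, and on the first eWAT control array 2 lay at -9.32 against 23.4 to 44.9 for the other eWAT arrays. Results are therefore also given without control animals 1 and 4 and with each animal left out.

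No gene passed an adjusted p of 0.05 in limma's moderated test of the 8 gaps (0 of 11050, or 0%), and the smallest adjusted p was 0.134. At an unadjusted p under 0.05 the same test listed 1867 genes, or 16.9% of those tested, with 917 (8.3%) higher and 950 (8.6%) lower. The 4 scoparia gaps and the 4 control gaps did not overlap for 1024 genes, or 9.27%, of which 399 (3.61%) were higher and 625 (5.66%) lower. The median difference over all genes was -0.08, with 43.9% of genes above 0. When the 4 groups were fitted over 16 arrays without the animal, 6 genes (0.0543%) passed, 5 higher and 1 lower. With the animal as a random block 48 genes passed, 38 of them higher. Leaving out control animal 3 gave 424 genes, 303 of them higher, and leaving out any other single animal gave 0. Weights estimated for each animal from these gaps gave 5088 genes, with a weight of 3.52 for control animal 1 against 0.257 for control animal 3. Genes are therefore described below by their values. Up to 15 in each direction were taken by smallest p, with named symbols and detection on at least 2 arrays of every group. That choice fixes their signs and their small p values.

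The positive difference with the smallest p was that of Larp4b, a La-related protein that binds messenger RNA. In iWAT it stood at 6.52, 6.34, 6.28 and 6.05 log2 units on the scoparia arrays and at 5.57, 4.73, 5.57 and 5.05 on the control arrays. In eWAT it stood at 6.74, 6.14, 6.21 and 5.72 on the scoparia arrays and at 7.35, 7.16, 6.95 and 6.82 on the control arrays. The order of the diets was thus turned round between the depots, with no overlap of the arrays in either. The gaps averaged 0.10 ± 0.24 in scoparia animals and -1.84 ± 0.43 in control animals (SD, n = 4 each). Their difference was 1.94 ± 0.27 (SE; 95% confidence interval 1.34 to 2.54; limma's unadjusted p = 2.53e-05, adjusted p = 0.134). The probe was detected on 2 of the 4 iWAT control arrays and on all others.

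The negative difference with the smallest p was that of Gsc, the homeobox factor goosecoid of early embryonic patterning. In iWAT it stood at 6.73, 6.59, 6.63 and 6.46 on the scoparia arrays and at 7.91, 7.83, 7.79 and 8.37 on the control arrays. In eWAT it stood at 5.48, 5.92, 5.66 and 6.17 on the scoparia arrays and at 5.30, 4.66, 5.59 and 5.59 on the control arrays. In every animal Gsc was higher in iWAT than in eWAT, and each scoparia animal had a smaller gap than each control animal. The gaps averaged 0.79 ± 0.41 in scoparia animals and 2.69 ± 0.40 in control animals (SD, n = 4 each). Their difference was -1.90 ± 0.29 (SE; 95% confidence interval -2.55 to -1.25; limma's unadjusted p = 5.98e-05, adjusted p = 0.134). It was detected on 3 of the 4 eWAT control arrays and on all others.

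The 250 bases before the RefSeq start of these genes are shown because they head the list in each direction. They come from GRCm38.p6, read 5′ to 3′ in the gene's own direction, at chr13:9093631-9093880 (plus strand) for Larp4b and at chr12:104473237-104473486 (minus strand) for Gsc. Capitals mark matches to the motifs of the TATA box (TATAAA), the CCAAT box, the core that the aryl hydrocarbon receptor binds (GCGTG) and the E-box of clock factors (CACGTG). Each was searched on both strands at any distance from the start, so a match need not be a working element.
Larp4b: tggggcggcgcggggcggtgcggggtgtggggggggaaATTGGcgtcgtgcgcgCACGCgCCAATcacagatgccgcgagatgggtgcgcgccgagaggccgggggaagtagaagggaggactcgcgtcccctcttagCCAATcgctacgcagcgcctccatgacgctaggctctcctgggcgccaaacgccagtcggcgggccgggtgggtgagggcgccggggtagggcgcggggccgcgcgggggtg
Gsc: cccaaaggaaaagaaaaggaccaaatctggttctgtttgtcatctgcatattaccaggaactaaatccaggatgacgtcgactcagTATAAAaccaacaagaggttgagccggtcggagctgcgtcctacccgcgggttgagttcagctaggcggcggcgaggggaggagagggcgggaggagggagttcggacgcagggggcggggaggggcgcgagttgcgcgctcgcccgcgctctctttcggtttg
The Larp4b window is rich in G and C (74.0%, with 35 CpG pairs) and holds 3 CCAAT boxes and 1 GCGTG. The Gsc window is 59.2% G and C with 22 CpG pairs and holds 1 TATAAA. Of 32851 windows of this length, 33.8% hold the CCAAT motif, 28.2% the receptor core, 12.4% the TATAAA motif and 6.02% the E-box motif on either strand. The marked letters describe the windows only, and no measurement of binding was part of the study.

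Like Larp4b, the other genes at the positive end had gaps that did not overlap between diets, which their choice by p favours. Within a depot their arrays could overlap. Bbx, a DNA-binding HMG-box protein, had gaps of 0.00, 0.26, 0.62 and 0.59 in scoparia animals and of -2.17, -1.86, -0.94 and -1.62 in control animals. Mindy2, a deubiquitinase, had gaps of 0.26, 0.28, 0.52 and 0.64 in scoparia animals and of -2.24, -2.55, -0.62 and -1.82 in control animals. Both genes were thus near equal in the depots of scoparia animals and lower in iWAT in every control animal, with control animal 3 nearest to the scoparia animals. The differences were 2.01 ± 0.30 for Bbx and 2.23 ± 0.38 for Mindy2 (both limma adjusted p = 0.134). Mysm1, a histone H2A deubiquitinase of blood cell development, had the largest difference of the 15 at 2.92 ± 0.53, and its iWAT control arrays ran from 5.20 in animal 1 to 8.05 in animal 3. Chka, the choline kinase that opens phosphatidylcholine synthesis, stood at 2.77 ± 0.50, a value that rests on 1 probe, since its other probe stood at 0.13. On the probe used the gaps were -0.43, 0.78, 0.86 and 0.94 in scoparia animals and -3.18, -2.07, -0.85 and -2.83 in control animals. Scoparia animal 16 lay below its group but above all 4 control animals.

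Among the rest of these 15 were the rhomboid protease Rhbdl2 (2.48), the zinc finger protein Zfp157 (1.89), the endosomal chloride and proton exchanger Clcn3 (1.42) and the ubiquitin ligase Trim2 (2.07). They also held Adap2, which acts on Arf GTPases (1.90), the transcription factor Klf7 (1.47) and the exocyst subunit Exoc4 (1.45). The RNA helicase Ddx6 of processing bodies (1.57) and Prf1, the perforin of killer lymphocytes (2.05), completed them with Ifngr2, a chain of the interferon gamma receptor (1.67). The limma adjusted p was 0.134 for all 15. Ifngr2 rests on 1 probe, since its other 2 probes stood at -0.48 and -0.54, and so does Trim2, whose other probe stood at 0.32. Zfp157 and Trim2 were detected on 2 of the 4 iWAT control arrays and Mysm1 on 3. Bbx, Mindy2, Larp4b and Gsc also passed without the animal block, as did Reep3, a protein that shapes the endoplasmic reticulum (2.07), and a gene with a clone name.

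**Figure D1:**
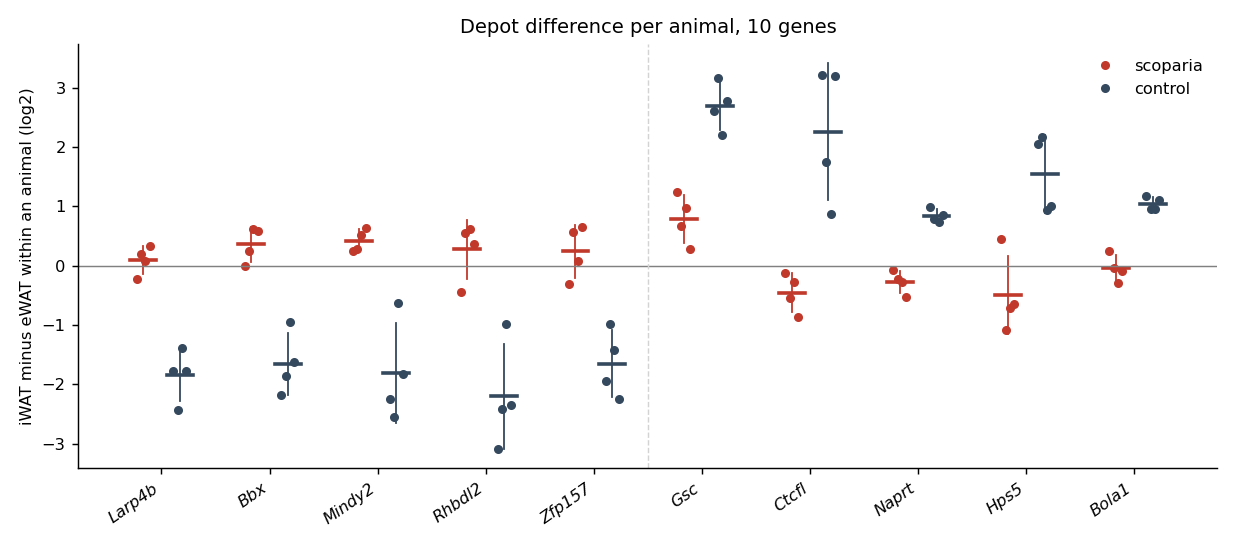
Depot gap (iWAT minus eWAT, log2) of each animal for the 5 positive (left of the dashed line) and 5 negative differences with the smallest p, scoparia animals in red and control animals in dark blue. Points are animals, thick bars are means and thin lines are ± SD (n = 4 each); the gaps of the 2 diets do not overlap for any of the 10 genes, which were chosen by p.

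At the negative end, Ctcfl, a germ cell paralog of the insulator protein CTCF, had the largest difference, -2.71 ± 0.50. Its gaps were -0.12, -0.54, -0.28 and -0.87 in scoparia animals and 3.22, 1.74, 0.88 and 3.21 in control animals. Control animals 1 and 4 were highest, and the probe was detected on 2 of the 4 eWAT control arrays. Tapbp, the tapasin chaperone of MHC class I loading, stood at -2.25 ± 0.46, with iWAT control arrays 1 and 4 at 10.5 and 10.6 and the other 2 at 9.05 and 8.45. The other Tapbp probe stood at 0.27, of opposite sign. Smaller differences with a narrow spread between animals were found for 3 further genes. Naprt, which makes NAD from nicotinic acid, had gaps of -0.07, -0.22, -0.27 and -0.53 in scoparia animals and of 0.99, 0.79, 0.74 and 0.86 in control animals, a difference of -1.12 ± 0.22. The gap of the mitochondrial iron-sulfur protein Bola1 averaged -0.04 in scoparia animals and 1.05 in control animals, a difference of -1.09 ± 0.22. That of the ATP synthase assembly factor Fmc1 averaged 0.27 in scoparia animals and 1.25 in control animals, a difference of -0.98 ± 0.21. The limma adjusted p was 0.134 for Ctcfl, Tapbp, Naprt and Bola1 and 0.143 for Fmc1.

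Other negative genes were Hps5, a subunit that sorts cargo to lysosome-related organelles (-2.04), the chemokine Ccl27a (-1.18), Vat1l (-1.64) and the tight junction protein Cldn10 (-1.64). With them stood Aig1, a hydrolase of fatty acid esters of hydroxy fatty acids (-1.21), Smyd4 (-1.22), the cytokine cardiotrophin 1 (Ctf1, -1.21) and the lectin Cd302 (-1.14), all with limma adjusted p between 0.134 and 0.147. Vat1l kept a positive gap in every animal, 2.0, 1.81, 1.0 and 0.85 in scoparia animals against 3.01, 3.76, 3.0 and 2.45 in control animals. The depot difference of Vat1l was thus smaller in each scoparia animal than in any control animal, without a change of sign.

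Split by depot, all 15 positive genes were higher in scoparia than in control iWAT and lower in scoparia than in control eWAT, and all 15 negative genes showed the opposite. Over all genes, 42.6% had effects of opposite sign in the depots, against 72.3% of the positive and 83.5% of the negative genes at p under 0.05. These shares follow in part from the choice, since a difference is large where the effects oppose. The iWAT effect (scoparia minus control) spread more over genes, with an SD of 0.56, than the eWAT effect with an SD of 0.30. The iWAT effect was the larger in size for 81.3% of genes at p under 0.05 and for 70.8% of all genes. Among the 15 positive genes it was the larger for 13, from 0.74 to 2.2, while their eWAT effects ran from -0.94 to -0.38. Exoc4 and Ddx6 were the exceptions, with iWAT effects of 0.31 and 0.36. Ddx6 stood at 7.19, 6.38, 6.25 and 6.28 on the eWAT scoparia arrays and at 7.83, 8.19, 7.12 and 7.80 on the eWAT control arrays, a difference of -1.20. Across the 11050 genes the effects in the depots correlated at r = 0.19 (Spearman rho = 0.23), over genes of the same animals on different arrays, which are not independent.

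**Figure D2:**
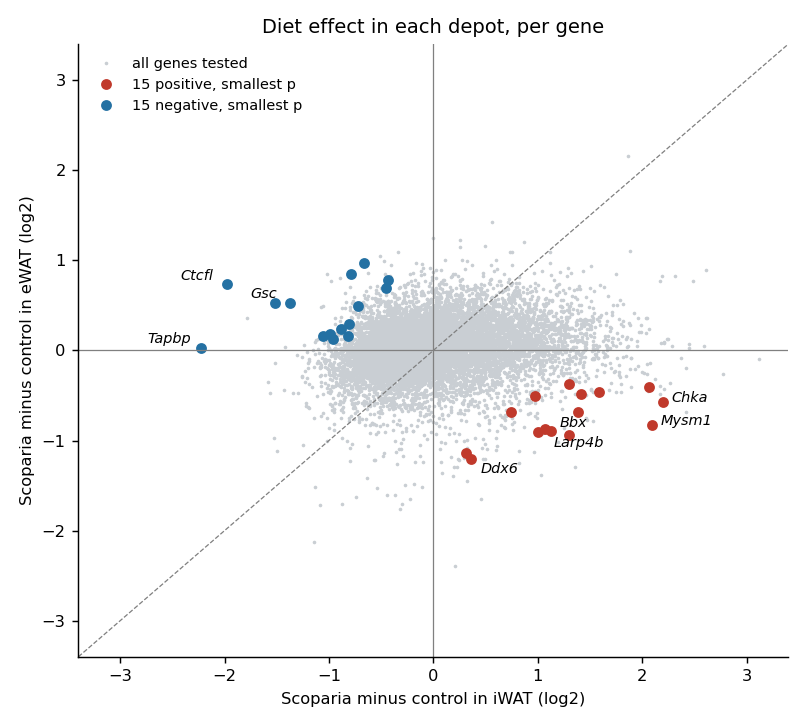
Scoparia minus control (log2) in iWAT on the x axis and in eWAT on the y axis for the 11050 genes tested; the dashed line marks equal effects. The 15 positive genes (red) lie at the lower right and the 15 negative genes (blue) at the upper left, and the cloud of all genes is wider along iWAT.

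Many of these differences were gaps present in control animals and small or of opposite sign in scoparia animals. For the 15 positive genes the mean control gap lay between -2.23 and -0.89 and the mean scoparia gap between -0.07 and 0.71. For the 15 negative genes the mean control gap lay between 0.05 and 3.05 and the mean scoparia gap between -1.16 and 1.41, and in 11 of them the scoparia gap was the smaller in size. The mean gap differed in sign between diets for 10 of the 15 positive and 11 of the 15 negative genes. The same held for 3743 of all 11050 genes, and the choice of the 30 by p favours it. Over all genes the mean gap was smaller in scoparia animals for 61.9%. To measure this with no choice of genes, the root mean square of the gap over all genes was taken in each animal. It was 0.648, 0.703, 0.729 and 0.912 log2 units in scoparia animals and 0.969, 0.766, 0.835 and 1.00 in control animals. The groups overlapped, since scoparia animal 20 lay above control animals 2 and 3. The means were 0.748 ± 0.114 and 0.893 ± 0.111 for scoparia and control animals (SD, n = 4 each), a difference of -0.145 that did not pass an exact two-sided permutation test (p = 0.143, where 0.0286 is the smallest possible). Genes at least 2-fold apart between depots made up 8.45%, 10.7%, 10.7% and 15.7% in scoparia animals and 25.9%, 12%, 15.9% and 31.3% in control animals (exact permutation p = 0.0571). Control animals 1 and 4, whose iWAT arrays stood apart, had the highest shares, and without them the difference in root mean square was -0.0521 (exact permutation p = 0.6, where 6 animals allow no p under 0.05).

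The share of probes detected moved with the comparison. Its gap, iWAT minus eWAT in percentage points, was -0.381, 1.54, 1.00 and 3.85 in scoparia animals and -5.54, -3.97, -1.48 and -2.41 in control animals. The groups did not overlap, and the difference of 4.85 points had the smallest p that an exact two-sided permutation test allows (p = 0.0286, n = 4 each). With this gap as a covariate limma again listed 0 genes at an adjusted p under 0.05, and 86 in place of 1867 at an unadjusted p under 0.05. Since the gap in detected share did not overlap between diets, such a fit cannot well tell it apart from diet. A covariate tied to diet by itself widens the standard errors and lowers such a count. The 30 genes named above kept their signs and between 25% and 81.3% of their differences, with a median of 55.4%. Without control animals 1 and 4 the 30 genes kept between 65.0% and 119.8% of their size. All 30 also kept their signs there and when each of the 8 animals was left out in turn. That was fixed in advance, since the gaps of all 30 did not overlap between diets. The part of the detected share in the result was not tested. The gaps also varied more among control animals: the median SD over genes was 0.304 in scoparia and 0.505 in control animals, and the SD was the larger in control animals for 75.6% of genes.

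**Figure D3:**
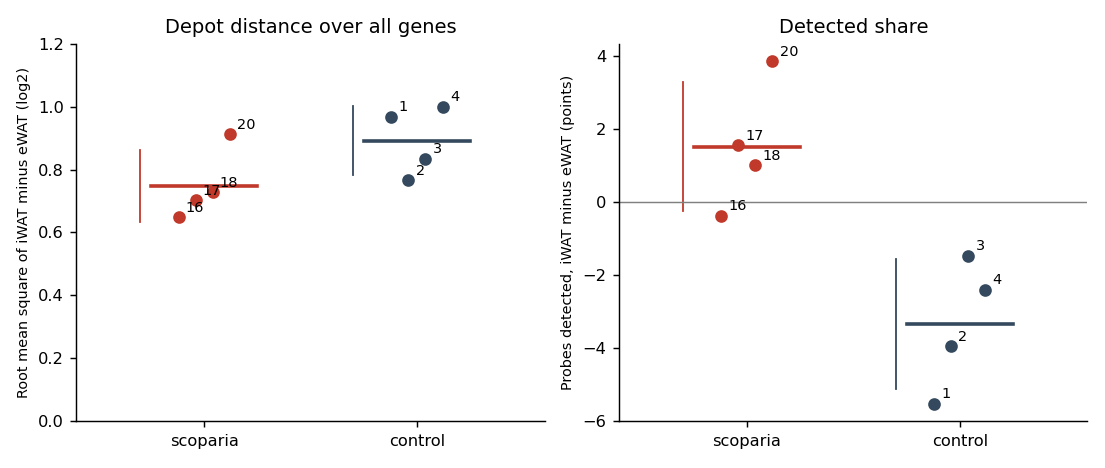
Left, root mean square over 11050 genes of iWAT minus eWAT (log2) in each animal; right, the share of probes detected in iWAT minus that in eWAT (percentage points). Points are animals with their numbers, thick bars are means and thin lines ± SD (n = 4 each); the depot distances overlap between diets and the detected shares do not.

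Lymphocyte genes formed the group with the highest differences among 39 gene lists. All 12 measured B cell genes stood above 0, with a median difference of 1.81, and 3 of them were at p under 0.05, against 8.3% of all genes that were higher at that p. They included Blk, a kinase of the B cell receptor (2.57). All 16 T and NK cell genes stood above 0, with a median of 1.28 and 1 gene, Prf1, at p under 0.05, a share no larger than that 8.3%. All 9 lymph node genes did so with a median of 1.73, among them Glycam1, a mucin of high endothelial venules (2.38). Over all genes 43.9% stood above 0. The limma adjusted p of these genes was at least 0.134. Without scoparia animal 20 the medians were 1.2 for B cells, 0.67 for T and NK cells and 1.19 for lymph node genes, and without control animal 1 the lymph node median was 0.97. Without control animal 3 the T and NK cell median was 0.76, and without control animal 2 it was 1.95.

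The mean gap over the B cell genes was 1.82, 3.3, 4.16 and 5.20 in scoparia animals and 0.29, 3.71, 1.08 and 2.19 in control animals. Control animal 2 lay above scoparia animals 16 and 17, so the groups overlapped, and in every animal the genes were higher in iWAT. In eWAT the mean B cell level was 5.18 to 5.31 in scoparia animals and 4.89 to 5.97 in control animals. In iWAT it was 7.09 to 10.5 in scoparia animals and 5.45 to 8.87 in control animals. The labels do not say whether the inguinal lymph node was kept in the tissue. With the B cell gap as a covariate the medians became -0.08 for B cells, -0.31 for T and NK cells and -0.11 for lymph node genes. This covariate is the mean gap of the same B cell genes, so a B cell median near 0 follows from its construction. With the detected share as a covariate they became -0.22, 0.31 and -0.39. Over all genes, the fit with the B cell gap as a covariate listed 0 genes at an adjusted p under 0.05 and 1054 at an unadjusted p under 0.05 in limma.

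**Figure D4:**
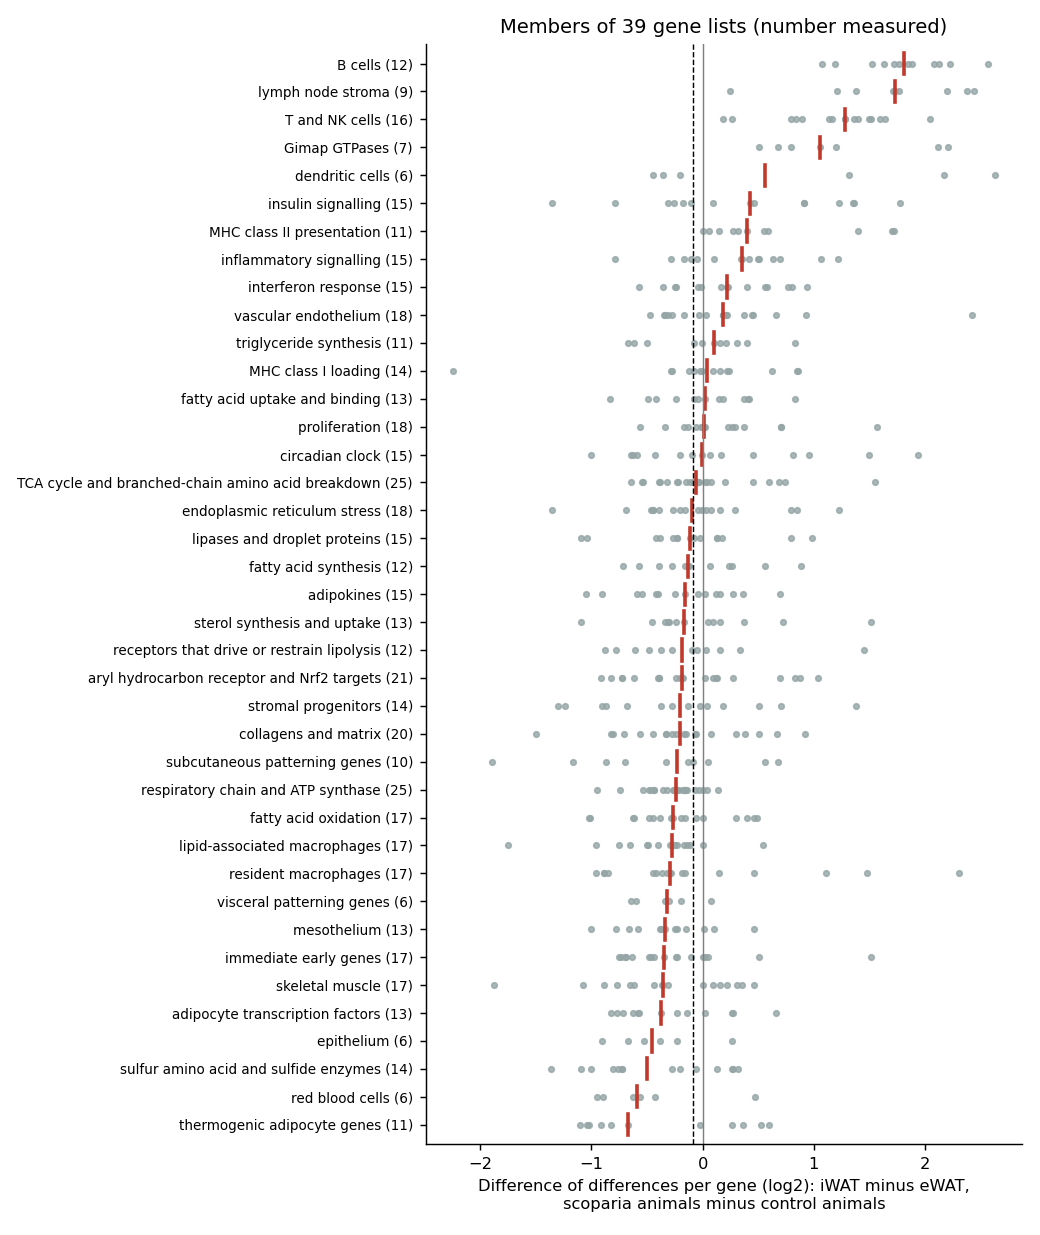
Difference of differences (log2, scoparia minus control) of each measured member (grey points) of 39 gene lists, with the list median in red; the dashed line is the median of all genes at -0.08. B cell, lymph node and T and NK cell genes lie highest, with medians from 1.28 to 1.81, and thermogenic adipocyte genes lowest with a median of -0.67.

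The Gimap GTPases, which support lymphocyte survival, were also all above 0, with 7 of 7 measured and a median of 1.06. In contrast to the lists above, their mean gaps did not overlap between diets: 1.04, 1.32, 1.87 and 2.52 in scoparia animals and 0.14, 0.98, 0.54 and 0.20 in control animals. Of the 7 genes, 5 were at p under 0.05 in limma, against 8.3% of all genes, and 4 had gaps that did not overlap, against 3.61% of all genes in that direction. Gimap5 stood at 7.12, 6.81, 7.54 and 8.08 on the iWAT scoparia arrays and at 4.87, 6.49, 6.38 and 4.81 on the iWAT control arrays. In eWAT Gimap5 ran from 5.35 to 6.29 on the scoparia arrays and from 5.61 to 7.01 on the control arrays. Its difference was 2.21 ± 0.43 (limma adjusted p = 0.134), or 1.15 on its other probe. Gimap8 followed with 2.12 ± 0.54 (adjusted p = 0.173). With the B cell gap as a covariate the Gimap median was 0.55, and with the detected share it was 0.20.

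Genes of antigen presentation and of other immune cells divided. All 11 MHC class II presentation genes stood above 0 with a median of 0.40, but scaling the arrays to equal medians in place of quantiles moved this to -0.05, and it was 0.06 without scoparia animal 20 and 0.13 without control animal 3. The peptide exchange regulators H2-Oa (1.70) and H2-Ob (1.72) and the class II activator Ciita (1.40) were the 3 at p under 0.05 (8.3% of all genes were higher at that p). Of 14 genes of MHC class I loading 7 stood above 0, with a median of 0.04 that median scaling turned to -0.17. Of 6 dendritic cell genes 3 stood above 0, with a median of 0.56. Flt3, Xcr1, Clec9a and Ccr9 of that list were not measured. The dendritic cell median was -0.044 without the filter on detection. It was -0.007 with the detected share as a covariate and -0.214 with the B cell gap as a covariate. Siglech, a receptor of plasmacytoid dendritic cells, had gaps of 0.05, 1.01, 1.77 and 2.04 in scoparia animals and -2.75, -0.69, -0.32 and -1.91 in control animals, which did not overlap, and a difference of 2.63 ± 0.58 (limma adjusted p = 0.143), or 1.09 on its other probe. Among 15 inflammatory signalling genes 10 had a positive difference (median 0.36, or 0.17 without scoparia animal 20), with the NF-kappaB inhibitor Nfkbia at 1.07, and 9 of 15 interferon response genes did (median 0.22, or -0.11 with median scaling).

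Of 17 genes of lipid-associated macrophages 15 stood below 0, against 56.1% of all genes, with a median of -0.27. That median was -0.05 without control animal 2, -0.47 without control animal 3 and 0.01 with the detected share as a covariate. The mean gap over the list was -2.0 to -1.59 in scoparia animals, and in control animals it was -0.45 in animal 2 and -1.98 to -1.61 in the other 3, so the groups overlapped. Trem2, the lipid receptor that defines these cells, had gaps of -4.18, -3.69, -4.41 and -5.58 in scoparia animals and -2.98, -1.06, -4.11 and -2.70 in control animals. It was far higher in eWAT in every animal, and scoparia animal 17 overlapped with control animal 3. The difference was -1.75 ± 0.60 (limma adjusted p = 0.222). On eWAT control array 2, which stood apart, Trem2 was at 9.57, against 12.1 to 12.8 on the other eWAT arrays. Of 17 resident macrophage genes 12 stood below 0, with a median of -0.30. Of these 12 genes, 3 were at p under 0.05 (8.6% of all genes were lower at that p). The 12 included the lipopolysaccharide coreceptor Cd14 (-0.89) and the Fc receptor-like Fcrls (-0.96). In the same list 5 genes stood above 0, 3 of them at p under 0.05 (8.3% of all genes were higher at that p). They were Timd4, Lyve1 and Mertk, whereas other markers of resident macrophages stood lower, such as Folr2 (-0.29), Stab1 (-0.37), Retnla (-0.16) and Cd163 (0.15). Timd4, a receptor for dying cells, had gaps of 2.70, 3.19, 3.87 and 4.71 in scoparia animals and 0.15, 2.67, 1.15 and 1.29 in control animals. The groups did not overlap, but control animal 2 at 2.67 lay next to scoparia animal 16 at 2.70. The difference was 2.31 ± 0.55 for Timd4, 1.48 ± 0.42 for the hyaluronan receptor Lyve1 and 1.11 ± 0.25 for the engulfment receptor Mertk (limma adjusted p from 0.152 to 0.2).

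**Figure D5:**
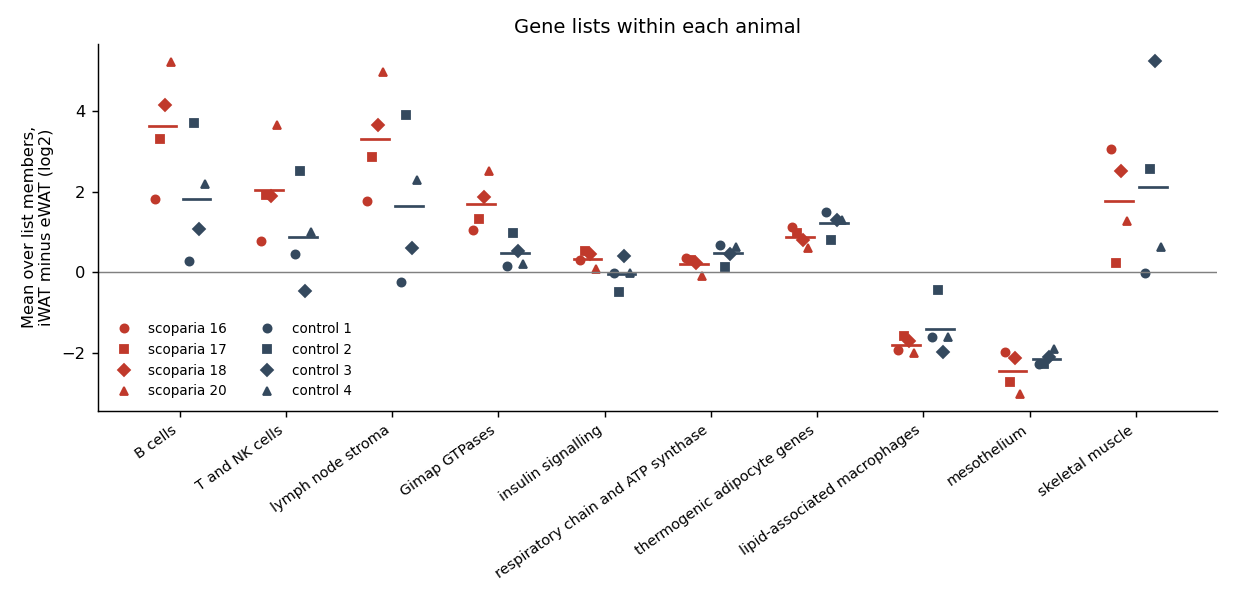
Mean over the members of 10 gene lists of iWAT minus eWAT (log2) in each animal, scoparia animals in red left of control animals in dark blue, with a symbol per animal and bars at the group means. Gimap GTPases are the 1 list of these 10 whose scoparia and control animals do not overlap; B cell gaps run from 1.82 to 5.20 in scoparia animals and from 0.29 to 3.71 in control animals.

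Among genes of the adipocyte, the thermogenic list had the lowest median of the 39 lists. Only 11 of its 17 genes were measured, and Ucp1, Dio2, Prdm16, Elovl3, Tmem26 and Gk were not. Of 11 thermogenic genes 7 stood below 0, with a median of -0.67, and 4 of these were at p under 0.05 (8.6% of all genes were lower at that p). Among those above 0, 1 was at p under 0.05 (8.3% of all genes were higher at that p). Cox8b, a cytochrome oxidase subunit of brown and beige fat, had gaps of 1.56, 1.16, 0.90 and 0.34 in scoparia animals and 2.27, 1.62, 2.40 and 2.07 in control animals. It was higher in iWAT in every animal, the groups did not overlap, and the difference was -1.10 ± 0.31 (limma adjusted p = 0.196). Cidea, a lipid droplet protein (-1.04), and Cpt1b, which passes fatty acids into mitochondria (-1.02), stood beside it. Ppargc1b, a coactivator of mitochondrial genes, stood at 0.60. The list's median was -0.21 without the filter on detection, -0.21 with the detected share as a covariate and -0.38 without control animals 1 and 4.

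Of 25 subunits of respiratory complexes and of ATP synthase, 22 stood below 0, with a median of -0.24 against -0.08 for all genes. Of these 1, Cox7a2 of complex IV (-0.95 ± 0.31), was at p under 0.05 in limma, where 8.6% of all genes were lower at that p. The gaps of 4 of the 25 did not overlap between diets, against 9.27% of all genes. The mean gap over the list was -0.10 to 0.35 in scoparia animals and 0.13 to 0.67 in control animals, so the groups overlapped. Without control animals 1 and 4 the median was -0.03, and with the detected share it was 0.00. Of 17 fatty acid oxidation genes 12 stood below 0 (median -0.26), and of 25 genes of the tricarboxylic acid cycle and branched-chain amino acid breakdown 16 did (median -0.06).

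Of 14 genes of sulfur amino acid and sulfide metabolism 10 stood below 0, with a median of -0.50 and 4 at p under 0.05, against 8.6% of all genes that were lower at that p. The median was -0.13 without control animals 1 and 4 and -0.11 with the detected share as a covariate. Tst, a mitochondrial sulfurtransferase, stood at 7.59, 6.97, 6.89 and 6.95 on the iWAT scoparia arrays and at 8.79, 8.61, 8.36 and 8.69 on the iWAT control arrays. In eWAT Tst ran from 6.48 to 6.88 on the scoparia arrays and from 6.47 to 7.49 on the control arrays. The iWAT arrays did not overlap between diets, whereas the eWAT arrays did. The difference of differences was -1.37 ± 0.31 (limma adjusted p = 0.147), with -1.51 in iWAT and -0.15 in eWAT. Cbs, which makes cystathionine from homocysteine, stood at -1.09 and Ahcy, which releases homocysteine, at -1.01.

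Insulin signalling held both directions. Of 15 genes 9 stood above 0 (median 0.42), 5 of them and 2 of the negative ones at p under 0.05, against 8.3% of all genes higher and 8.6% lower at that p. The median was 0.18 without control animal 3, 0.245 without scoparia animal 20 and 0.097 without the filter on detection. Akt1 and Tbc1d4 of that list were not measured. Pdpk1, the kinase that activates Akt, stood at 7.74, 7.05, 6.76 and 7.25 on the eWAT scoparia arrays and at 8.15, 9.2, 7.88 and 8.29 on the eWAT control arrays. These did not overlap. Its iWAT arrays did, from 7.43 to 7.96 on scoparia arrays and from 7.39 to 7.71 on control arrays, and the difference was 1.35 ± 0.33 (limma adjusted p = 0.167). The eWAT control array 2, which stood apart, was the highest of all 16 arrays for Pdpk1. The regulatory and catalytic subunits of phosphatidylinositol 3-kinase, Pik3r1 (1.36) and Pik3ca (1.23), had iWAT effects of 1.01 and 0.94. Trib3, an inhibitor of Akt that stress induces, stood at -1.35 ± 0.33 on the probe used and at -0.13 on its other probe. On the probe used it had gaps of 0.22, 0.03, -0.55 and -0.49 in scoparia animals and 1.18, 1.66, 0.36 and 1.43 in control animals, without overlap. The insulin receptor Insr stood at -0.10, its substrate Irs1 at 0.10 and the insulin-regulated glucose transporter Slc2a4 at -0.31, with unadjusted limma p from 0.591 to 0.762.

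Gsc belongs to the list of 10 subcutaneous patterning genes. Of the other 9 genes 6 stood below 0 (median -0.13), 2 of them at p under 0.05, against 8.6% of all genes. With the detected share as a covariate the median of the 10 was 0.21, against -0.23 without it. Hoxc9 had gaps of 1.63, 1.58, 1.12 and 0.48 in scoparia animals and 2.11, 2.14, 2.10 and 1.92 in control animals, which did not overlap, with control animals close together. The difference was -0.87 ± 0.28 (limma adjusted p = 0.211). Of 6 visceral patterning genes 5 stood below 0 (median -0.32), none at p under 0.05 in limma. The 13 mesothelial genes, 10 of them below 0, had a median of -0.34.

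Clock genes stood on both sides of 0, with a median of 0.00. Rora, an activator of the clock gene Arntl, stood at 1.94 ± 0.49 (limma adjusted p = 0.171), with iWAT levels of 9.17, 8.83, 8.81 and 8.42 on the scoparia arrays and 6.23, 7.64, 8.61 and 6.70 on the control arrays. Control array 3 lay nearest to the scoparia arrays and overlapped with them. The output factors Dbp (-0.65) and Tef (-0.63) and the period gene Per3 (1.5) were also at p under 0.05. In all, 2 of the 15 were higher and 3 lower at that p, against 8.3% and 8.6% of all genes. Of 15 clock genes 4 had gaps that did not overlap between diets, against 9.27% of all genes, with Rora, Dbp and Tef among them. For Dbp the eWAT effect was 0.65 and the iWAT effect 0.01.

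Of 20 collagen and matrix genes 14 stood below 0 (median -0.20). The gaps of 4 of the 20 did not overlap between diets, against 9.27% of all genes. They were Loxl1, which crosslinks elastin (-0.81), the gelatinase Mmp2 (-0.82), Col18a1 (-0.71) and, above 0, the matrix glycoprotein Tnc (0.92). On its other probes Tnc stood at 0.28, 0.87 and 0.63. Of 14 stromal progenitor genes 9 stood below 0 (median -0.20). Of 18 vascular endothelial genes 11 stood above 0 (median 0.19, or -0.29 with median scaling and -0.25 without control animal 2). Coagulation factor VIII (F8) stood apart in that list, with gaps of 1.61, 1.11, 1.85 and 3.32 in scoparia animals and -1.75, -0.37, 0.71 and -0.39 in control animals. The difference was 2.42 ± 0.56 (limma adjusted p = 0.152), whereas Pecam1 (0.66), Cdh5 (0.22) and Vwf (-0.31), which mark endothelium at large, were smaller.

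The remaining lists had medians between -0.59 and 0.10. Of 18 genes of endoplasmic reticulum stress 11 stood below 0 (median -0.10), with the disulfide isomerase Pdia4 at 1.22 through its eWAT effect of -1.49. Of 12 receptors that drive or restrain lipolysis 8 stood below 0 (median -0.19), among them the lactate receptor Hcar1 (-0.88) and the niacin receptor Hcar2 (-0.78), while the natriuretic peptide clearance receptor Npr3 stood at 1.45. Medians were -0.11 for 15 lipases and droplet proteins, -0.13 for 12 fatty acid synthesis genes and -0.16 for 15 adipokines. They were 0.10 for 11 triglyceride synthesis genes and 0.02 for 13 fatty acid uptake genes, or -0.40 and -0.46 with median scaling, and the triglyceride median was -0.415 without control animal 2. For 13 sterol genes the median was -0.17, for 21 aryl hydrocarbon receptor and Nrf2 targets -0.19, for 17 immediate early genes -0.35, for 13 adipocyte transcription factors -0.38 and for 18 proliferation genes 0.01. Markers of tissues next to the fat varied between animals: 17 skeletal muscle genes had a median of -0.36, which was 0.73 without control animal 3, whose mean muscle gap of 5.25 was the highest. The medians were -0.46 for 6 epithelial and -0.59 for 6 red blood cell genes. The mean gap over the epithelial genes was -0.61 to -0.28 in scoparia animals and -0.21 to 0.23 in control animals, without overlap, as for the Gimap list and for none of the other 37 lists. Only 6 of the 16 epithelial genes were measured, at low signal, with list means from 5.01 to 5.70 log2 units over the arrays. The epithelial median was -0.02 without the filter on detection and -0.18 without background subtraction.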

How the data were processed

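Illumina bead arrays were run on RNA of 16 fat samples, from which 400 ng were labelled with biotin. The scanner file lists, per the file headers, the mean intensity of each of 25697 probes with its deposited detection p-value, and the authors also deposited normalized intensities, of which 25% are at or below 0. GenomeStudio and limma 3.18.13 are named, without their roles, in the submitters' processing notes. No array pair was identical and 0 value columns were unmapped.

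From the scanner intensities, neqc in limma 3.58.1 (R 4.3.3) corrected the background (offset 16, guided by detection p-values), normalized by quantiles and took log2. The 15052 probes detected at p under 0.05 on 4 or more arrays were kept, and for each of 11050 genes the probe with the highest mean was used. Gene names were updated through RefSeq tables (20736 probes by symbol, 3872 by synonym, 104 with several genes, 985 unmatched). The number of arrays limits the precision.

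The iWAT minus eWAT value of each animal was fitted with lmFit and eBayes, scoparia minus control, with Benjamini-Hochberg adjustment over all genes and a threshold of 0.05. Effects within a depot came from a fit of 4 group means. Leave-outs kept the normalization of all arrays. The fit was tested on simulated data. The 39 gene lists, the markers and the named genes were chosen with earlier results of these data known. Named genes were the 15 in each direction (by p, since none passed), up to 8 in each direction from the fit without the animal, and up to 3 per list by p. The results of 5 of them are not reported here by name. Pairing by animal comes from the numbers in the labels. The correlation between depots of each animal's deviations from its group means was 0.25, 0.034, 0.249 and 0.0676 in scoparia and 0.315, -0.207, 0.201 and 0.00258 in control animals. For 3 of the 8 animals the iWAT array correlated best with its own eWAT array.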

Additional observations from a re-analysis of the deposited data

Results flagged for a closer look

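The depot gaps (iWAT minus eWAT, log2) of the named genes were examined for an animal far from the other 3 of its diet, by Dixon's criterion for 4 values. Of 274 sets of 4 animals 11 met it, where chance gives about 1 in 20. In scoparia animal 16 the gap of Chka, choline kinase alpha, was -0.432 against 0.781 to 0.938 in the others. In scoparia animal 17 the hydrolase Aig1 stood at -0.652 against -1.366 to -1.297, the early B cell and adipocyte factor Ebf1 at 1.084 against 0.235 to 0.325, and the dendritic cell factor Zbtb46 at 0.827 against 0.337 to 0.366. In scoparia animal 20 the mesothelial gene Efemp1 stood at -2.926 against -1.475 to -1.29, the disulfide isomerase Pdia3 at 0.112 against -0.702 to -0.571, and the matricellular gene Ccn1 at -0.034 against 1.383 to 1.611.

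Among control animals, animal 1 stood apart for the beige fat gene Otop1 at 1.747 against 1.149 to 1.235, and for Gimap6 at 0.582 against 0.909 to 0.942. Control animal 2 stood apart for the integrin Itgae at 2.52 against 0.668 to 0.959. Control animal 3 stood apart for the skeletal muscle actin Acta1 at 4.615 against 0.978 to 1.406.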

How the results depend on the processing

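The count of genes at an adjusted p under 0.05 was 0 with the pairing by animal. It was 6 with no replicate block, 48 with the animal as a random block and 5088 with weights per animal. It ranged from 0 to 424 when each animal was left out, the 424 without control animal 3, and was 0 under the other alternatives run. At an unadjusted p under 0.05 the leave-outs gave 1077 to 3043 genes, and median scaling, which moved the median of all genes from -0.084 to -0.238, gave 2648. The difference in depot distance kept its direction and side of the threshold throughout, from -0.199 to -0.0521. Of the 39 list medians, 16 changed sign with the detected share as a covariate, 17 with the B cell gap as a covariate, 6 with median scaling, 5 without control animals 1 and 4 and 11 in at least 1 of the leave-outs. The causes were not tested.

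A total of 36 values of named genes changed sign. With median scaling Elovl5 was -0.02737 and H2-Eb1 -0.04414. With weights per animal Thbd was 0.1189, Hoxa5 0.2273, Gpm6a 0.2492, Pvalb 0.3489 and Acta1 0.1148. With the detected share as a covariate Plin5 was 0.297, Pck1 0.5725, Otop1 0.2587, Hoxa5 0.1215, Gpm6a 0.2516, Slpi -0.7439, Acp5 0.1104, Fcer2a -0.185, Pou2af1 -0.1098, Cd22 -0.2232 and Ccl21a -0.3853. In the same fit Nlrc5 was -0.04622, H2-Ob -0.09512, Cd55 -0.008338, Ndufb5 0.05088, Sc5d -0.5498, Sqor 0.08618 and Srxn1 0.08725. With the B cell gap as a covariate Pck1 was 0.1488, Pou2af1 -0.007843, Cd22 -0.1486, Ccl21a -0.1115, Cxcl13 -0.7577, H2-Eb1 -0.09685 and Acta1 0.05071. Without control animals 1 and 4 Mcm4 was -0.1063. With each animal left out Gpm6a ran from -0.6737 to 0.05566, Slpi from -0.01307 to 1.214 and Acta1 from -1.206 to 0.07065. Depth in the sense of reads does not apply, and genes detected on few arrays of a group are limited by signal over background.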
